A study of Triticum aestivum with 12 samples.

Results

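PR-1 type genes of bread wheat (Triticum aestivum) are described here, defined as the genes whose description in the deposited count table holds the CAP domain (Pfam PF00188). The table listed 76 such genes among 124118, and the 41 with at least 5 counts summed over 12 libraries are the members described below. Another 29 had 0 counts in every library and 6 had between 1 and 4. The sum was 5 counts in the 3 members closest to that minimum (TraesCSU01G076600, TraesCS6D01G329200 and TraesCS1A01G443800) and 4 in TraesCS5B01G442800, the nearest gene left out. The domain alone defines these genes: the table gives identifiers and domains but no gene symbols, so none was matched to a named wheat PR-1 gene.

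RNA came from the upper part of wheat seedlings, taken without roots, untreated and 2 months after germination. Wild type (WT) was compared with the transgenic lines C20, C22 and C40, each an overexpression line for TaSIP1ΔC, where C40 is also written 40C. Each of the 4 groups had 3 libraries. By its title the series deals with TaSIP1, its partner TaSRO1, signalling from mitochondria to the nucleus, and salt tolerance. The labels state neither the promoter of the transgene, nor whether the lines are separate transformation events, nor whether the replicates are separate plants. What the p-values measure is therefore only the spread among the 12 libraries, which may be technical.

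PR-1 proteins are small secreted proteins of the CAP superfamily. They accumulate in leaves attacked by pathogens, and in Arabidopsis and tobacco a PR-1 transcript is the customary marker of the salicylic acid response, which in Arabidopsis runs through the co-activator NPR1. Members from tobacco and tomato bind sterols, and wheat PR-1 proteins are bound by secreted effectors of the fungus Parastagonospora nodorum. Many cereal CAP genes lie in tandem groups and are not all responsive to infection, so family membership does not by itself state a defence role.

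Library totals ran from 25622422 to 43532179 counts. Green-tissue transcripts were abundant: the summed level of Rubisco small subunit genes was 45856 to 63605 CPM (counts scaled to a common library size with edgeR's TMM factors) in WT and 9607 to 48281 in the lines, and the ranges for chlorophyll a/b-binding genes were 81912 to 123261 and 24850 to 127349. C20 replicate 3 and C40 replicate 1 stood apart from the other line libraries in their core histone transcripts, with summed levels of 1490 and 1157 CPM against 5018 to 12601 in the other 7, and WT had 1145 to 1302. Cyclin genes summed to 258 to 276 CPM in WT and 272 to 623 in the lines. The files do not pair TaSIP1 with an identifier, so the transgene's level was not checked. No source used here says whether counting used strand, and homoeologs and tandem copies of these genes may share reads, so single copies are uncertain. Positions below were copied from the count table. Its build is not named in the sources used here.

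CAP-domain transcripts were scarce in WT shoots and were higher in all 3 lines. Their summed level was 6.54, 7.44 and 18.3 CPM in WT, 100, 49.6 and 162 in C20, 175, 176 and 146 in C22, and 408, 499 and 563 in C40. No line library overlapped WT, C20 and C22 overlapped each other, and every C40 library lay above every other library. In C20 replicate 2, 37.2 of the 49.6 CPM came from members on chromosome groups 4 and 6. Its sum over groups 3, 5 and 7 was 12.2 CPM, below the 12.8 of WT replicate 3. The group means were 10.8 ± 6.55 CPM in WT (SD, n = 3), 104 ± 56.3 in C20, 165 ± 16.9 in C22 and 490 ± 78.0 in C40, which are 9.66, 15.4 and 45.5 times the WT mean. Over the 9 line libraries the mean was 253 ± 186 CPM, 23.5 times WT. In bulk RNA, more cells with these transcripts and more transcript per cell cannot be told apart. The highest WT library, replicate 3, is described with the group 5 neighbours below, and without it the log2 ratio of lines to WT was 5.18 in place of 4.56.

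The 3 most abundant genes carried most of the rise in every line library but C20 replicate 2. TraesCS5A01G183300, TraesCS7D01G161200 and TraesCS5B01G181500 held 8.24% to 8.86% of the members' CPM in the WT libraries and 15.6% to 71.2% in the line libraries (the lowest share in C20 replicate 2). The number of members with a group mean of at least 1 CPM was 3 in WT and 22 in C40. In mean CPM, 38 of the 41 members were higher in the lines than in WT and 3 were lower, all 3 among members too weakly counted to be tested. A member with 0 counts in WT, as 13 had, could reach the minimum of 5 counts only through the lines. This tally therefore describes the members and is not evidence about the family.

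**Figure D1:**
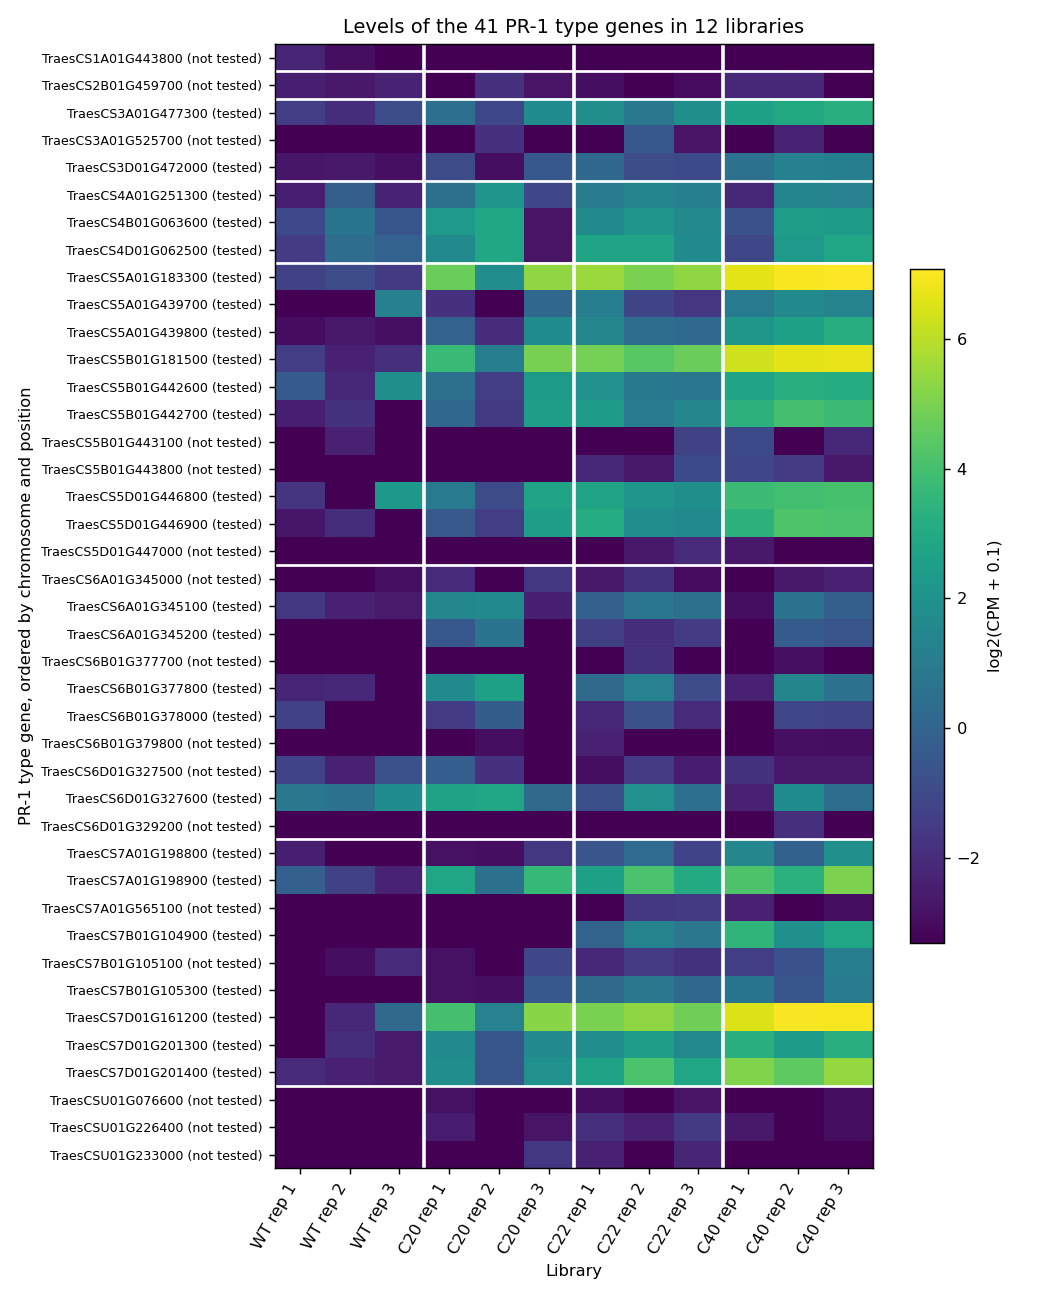
Level of each of the 41 members in every library as log2(CPM + 0.1), shown by colour, with genes ordered by chromosome and position and libraries by group. Most rows are near the lowest value in the 3 WT columns, and the brightest rows in the C40 columns are TraesCS5A01G183300, TraesCS7D01G161200 and TraesCS5B01G181500.

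The filter on low counts kept 25 of the 41 members for testing. Because it keeps genes with enough counts in as few libraries as 1 group holds, a member near 0 in WT could enter only by being higher in the lines, so the counts of calls below describe the tested members and are not evidence about the family. For the mean of the lines against WT, 13 of 25 were called higher by edgeR's quasi-likelihood test at an adjusted p (Benjamini-Hochberg over all 75788 tested genes) of at most 0.05, where 11.3% of all tested genes were called higher. None was called lower, where 11.7% of all tested genes were, and none was lower at an unadjusted p under 0.05, by DESeq2 or by limma. The median log2 fold change of the tested members was 4.37, beside 0.07 over all tested genes. All 9 line libraries exceeded all WT libraries in 10 of the 25, beside 5.95% of all tested genes.

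Line by line, 7 tested members were called higher in C20 (background 1.39%), 14 in C22 (9.35%) and 14 in C40 (9.68%), each against the same WT libraries. The median log2 fold change of the tested members was 3.87 in C20, 4.32 in C22 and 5.54 in C40, beside 0.03, 0.08 and 0.11 over all tested genes. All 3 libraries of the line exceeded all of WT in 10 members for C20 (background 10.5%), 20 for C22 (30.4%) and 16 for C40 (23.3%). The 7 members called in C20 were called in C22 and C40 too: TraesCS5A01G183300, TraesCS5A01G439800, TraesCS5B01G181500, TraesCS7A01G198900, TraesCS7D01G161200, TraesCS7D01G201300 and TraesCS7D01G201400. Another 7 were called in C22 and C40 and not in C20, which does not show that C20 differs from those lines. The 7 calls in C20 depended on the libraries fitted. With C20 and WT fitted alone, or without any 1 of the 3 WT libraries, 0 were called. Without C20 replicate 1 there were 2. The cause of this loss was not tested. Of the 14 calls in C22, 9 were made without WT replicate 1 and 7 without WT replicate 2. The shares of all tested genes called in these fits are not given here. Whether the losses are particular to the members is therefore not shown.

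The most abundant CAP transcript in the lines came from TraesCS5A01G183300, a gene of 495 bp on the minus strand of chromosome 5A (382777934 to 382778428). It measured 0.30, 0.44 and 0.24 CPM in WT, 26.4, 3.34 and 40.6 in C20, 45.7, 31.2 and 40.8 in C22, and 101, 125 and 135 in C40. No line library overlapped WT, and C20 replicate 2 was the lowest of the 9. Per kilobase of gene length its mean level was 0.66 CPM per kb in WT and 243 in C40. The means of C20, C22 and C40 were 71.6, 120 and 367 times that of WT. The log2 fold change of the mean of the lines was 7.18 ± 0.80 (SE, adjusted p = 0.000863, edgeR), and those of the single lines were 6.14 ± 0.80 in C20, 6.89 ± 0.82 in C22 and 8.50 ± 0.87 in C40 (adjusted p = 0.00835, 0.00229 and 0.00115).

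TraesCS5B01G181500, also 495 bp and on the minus strand of chromosome 5B (331247621 to 331248115), followed the same course. It measured 0.27, 0.09 and 0.17 CPM in WT, 13.3, 2.07 and 31.1 in C20, 29.9, 20.6 and 26.0 in C22, and 80.3, 101 and 105 in C40. Every line library was above WT, and every C40 library above every C20 and C22 library. Its mean level was 0.36 CPM per kb in WT and 193 in C40, and its log2 fold change in the mean of the lines was 7.49 ± 0.89 (adjusted p = 0.00117).

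TraesCS7D01G161200 on chromosome 7D (111114489 to 111115155, 667 bp, plus strand) came next per kilobase. Its level was 0, 0.13 and 1.10 CPM in WT, 16.2, 2.36 and 37.4 in C20, 32.0, 40.5 and 28.5 in C22, and 92.3, 129 and 126 in C40. WT replicate 3 stood above the other WT libraries here, but below every line library. The log2 fold change in the mean of the lines was 6.72 ± 1.20 (adjusted p = 0.00575), with 174 CPM per kb in C40.

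A pair of neighbours on chromosome 7D, TraesCS7D01G201300 and TraesCS7D01G201400, spans 47.0 kb (160487701 to 160534678), and both rose in every line. TraesCS7D01G201400 measured 0.14, 0.09 and 0.07 CPM in WT, 3.36, 0.59 and 3.78 in C20, 6.27, 17.4 and 6.95 in C22, and 34.4, 22.3 and 42.8 in C40. Its 4 groups did not overlap, and their order was WT, C20, C22 and C40. The log2 fold change in the mean of the lines was 6.49 ± 0.77 (adjusted p = 0.00117). TraesCS7D01G201300 reached a lower level, 0.08 ± 0.08 CPM in WT and 8.10 ± 2.57 in C40 (SD, n = 3), with a log2 fold change of 5.75 ± 0.80 (adjusted p = 0.0022).

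On chromosome 7A, TraesCS7A01G198900 measured 0.82, 0.31 and 0.10 CPM in WT, 7.05, 1.33 and 12.3 in C20, 6.11, 16.8 and 8.18 in C22, and 17.7, 10.01 and 32.3 in C40. No line library overlapped WT. Its log2 fold change in the mean of the lines was 4.71 ± 0.86 (adjusted p = 0.00643). Nearby, TraesCS7A01G198800 had 3 counts in all in WT, 0.04, 0.03 and 0.22 CPM in C20, 0.58, 1.14 and 0.33 in C22, and 2.74, 0.85 and 3.66 in C40. C20 overlapped WT and C40 lay above every C20 library. Against WT it was called in C22 and C40 (adjusted p = 0.0241 and 0.00629) and not in C20 (0.496), and its call for the mean of the lines was lost without WT replicate 2 or 3.

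TraesCS7B01G104900, 525 bp on chromosome 7B (121053510 to 121054034), was detected in C22 and C40 and not in the other groups. Its counts were 0 in all 3 WT and all 3 C20 libraries, and its level was 0.90, 2.40 and 1.66 CPM in C22 and 11, 3.63 and 6.99 in C40. Against 3 counts summed over a group, the floor used for a group at 0, which is 0.0308 CPM in WT and 0.0359 in C20, C22 was at least 53.6-fold higher than WT and at least 46-fold higher than C20. C40 was at least 234-fold higher than WT and at least 201-fold higher than C20. The adjusted p was 0.00586 for C22 and 0.0024 for C40 against WT. With WT and C20 both at 0, the mean of the lines could not be fitted for this gene, and it is not among the 13 calls.

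TraesCS7B01G105300, also 525 bp on 7B (121496032 to 121496556), had 0 counts in WT too, and measured 0.04, 0.03 and 0.63 CPM in C20, 1.09, 1.67 and 1.02 in C22, and 1.54, 0.59 and 1.83 in C40. C22 and C40 overlapped, and C20 replicate 3 was above the lowest C40 library. Over the WT floor its mean was at least 7.53-fold higher in C20, 40.9-fold in C22 and 42.8-fold in C40 (adjusted p = 0.0138 for the mean of the lines), a call lost without WT replicate 2. The C20 mean rests on replicate 3, with counts of 1, 1 and 14 in the 3 libraries. C20 was not called against WT (adjusted p = 0.0977, edgeR). Between both 7B genes, TraesCS7B01G105100, reached 2.11 CPM in C40 replicate 3 and otherwise stayed at or below 0.52, with too few counts to be tested.

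Tests between the lines were made in the same model. An F test for any difference between C20, C22 and C40 called 2 of 25 tested members (background 2.38%), TraesCS7B01G104900 (adjusted p = 0.0157) and TraesCS7D01G201400 (adjusted p = 0.0307). C40 was called above C20 for 3 members (background 0.971%): TraesCS7B01G104900 (adjusted p = 0.0119), TraesCS7D01G201400, with a log2 difference of 3.70 ± 0.63 (0.0224), and TraesCS7A01G198800, with 4.71 ± 0.97 (0.0416). C22 was called above C20 for 1 (background 0.503%), TraesCS7B01G104900 (adjusted p = 0.0348). In the F test TraesCS7B01G104900 was called without any 1 library, while the call of TraesCS7D01G201400 was lost without any 1 of WT replicates 1, 2 and 3, C20 replicate 1, C22 replicates 1 and 3 and C40 replicates 1, 2 and 3. For C40 above C20 the TraesCS7D01G201400 call was lost without C20 replicate 1 or C40 replicate 3, and the call of TraesCS7A01G198800 without any 1 library but C20 replicates 2 and 3 and C40 replicate 2. The call for C22 above C20 was lost without any 1 WT or C22 library and without C20 replicate 1 or 3, and without C20 replicate 3 TraesCS7B01G105300 was called in its place. Without C20 replicate 2 or 3 the F test called 8 and 9 members, with no share over all genes given for these fits. For C40 above C22 edgeR called 0 (background 0.222%), with 9 at an unadjusted p under 0.05, 1 by DESeq2 and 1 by limma. TraesCS5A01G183300 was 3.06 times as high in C40 as in C22, a log2 difference of 1.62 ± 0.62 (adjusted p = 0.379). All libraries of C40 exceeded all of C20 in 15 of the 25 (background 10.2%) and all of C22 in 12 (background 11.6%), and all of C22 exceeded all of C20 in 4 (background 12.6%).

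**Figure D2:**
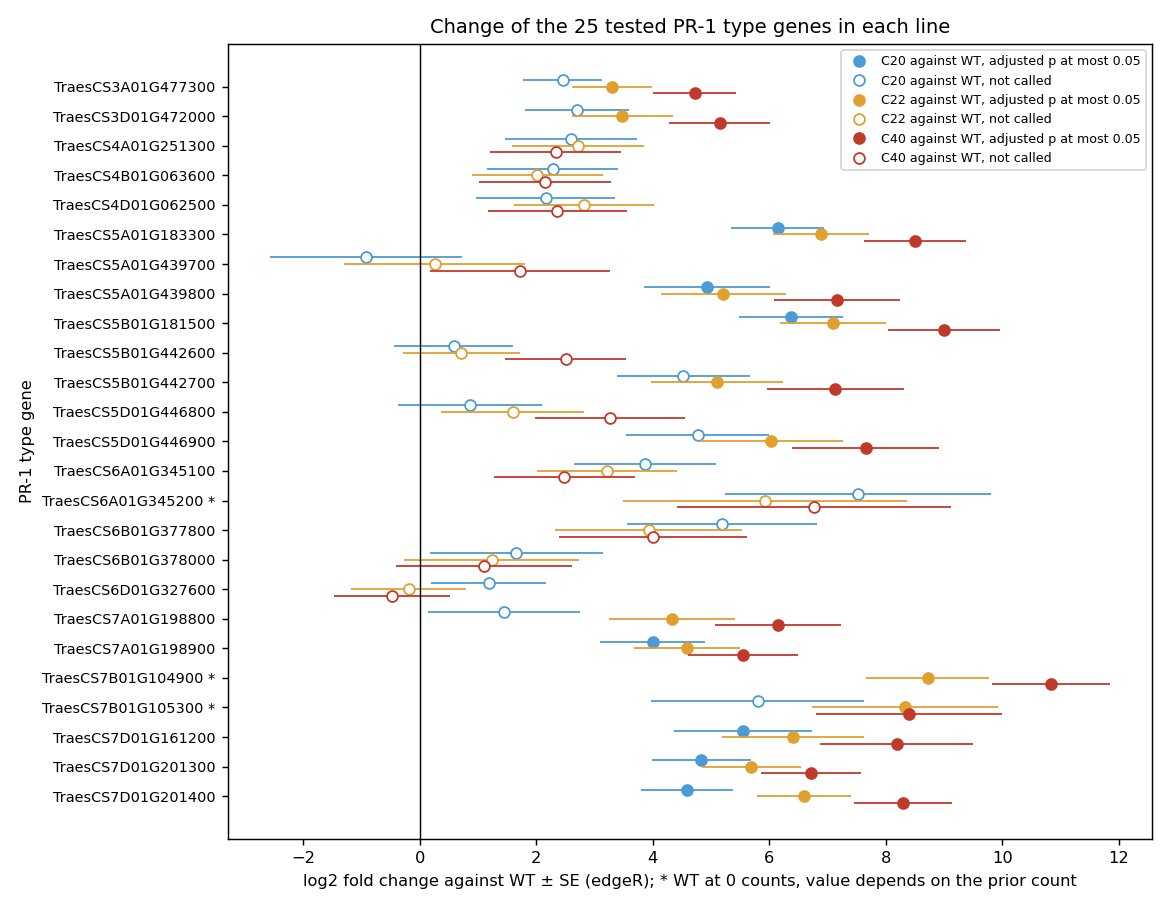
Fitted log2 fold change against WT of each of the 25 tested members in C20, C22 and C40, with bars of 1 SE, filled where the adjusted p was at most 0.05. TraesCS5A01G183300 runs from 6.14 in C20 to 8.50 in C40, and no point of the group 4 and group 6 genes is filled. Values marked with an asterisk belong to genes with 0 counts in WT and are not bounds.

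Clusters on the group 5 chromosomes held neighbours that differed in WT. Members whose starts lie at most 200 kb apart formed 9 clusters with 21 members. In the tightest, on 5B (615736560 to 615742268, a span of 5.71 kb), TraesCS5B01G442700 measured 0.08, 0.19 and 0 CPM in WT and 10.3, 16.1 and 13.9 in C40. TraesCS5B01G442600 beside it measured 0.69, 0.13 and 3.53 CPM in WT and 6.68, 9.32 and 8.54 in C40. The first was 0 and the second highest in the same WT library, replicate 3.

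The corresponding neighbours on 5A and 5D gave the same picture. TraesCS5A01G439700 measured 0, 0 and 2.23 CPM in WT and TraesCS5D01G446800 measured 0.19, 0 and 4.63, again with replicate 3 alone high. Both are 501 bp long, as is TraesCS5B01G442600. Their neighbours TraesCS5A01G439800 and TraesCS5D01G446900 were at most 0.06 and 0.16 CPM in any WT library. In the mean of the lines the log2 fold changes of the neighbours near 0 in WT were 5.77 ± 1.02 for TraesCS5A01G439800, 5.59 ± 1.08 for TraesCS5B01G442700 and 6.15 ± 1.17 for TraesCS5D01G446900 (adjusted p = 0.00553, 0.00798 and 0.0074). For the members high in WT replicate 3 they were 0.35 ± 1.30, 1.27 ± 0.88 and 1.91 ± 1.10 in the same order of chromosomes (adjusted p = 0.861, 0.305 and 0.219). Without WT replicate 3, the change of TraesCS5D01G446800 was 5.81 (adjusted p = 0.0251) and it was called, while that of TraesCS5B01G442600 was 3.03 (adjusted p = 0.0899) and it was not. TraesCS5A01G439700 was then at 0 in the remaining WT libraries and was not called either (adjusted p = 0.0836). In C40, TraesCS5D01G446800 averaged 15.3 ± 1.38 CPM and TraesCS5D01G446900 15.3 ± 4.44 (SD, n = 3). On 5A the levels there were 2.43 ± 0.613 CPM for TraesCS5A01G439700 and 6.45 ± 2.20 for TraesCS5A01G439800, and on 5B 8.18 ± 1.36 for TraesCS5B01G442600 and 13.4 ± 2.94 for TraesCS5B01G442700.

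On the group 3 chromosomes, TraesCS3A01G477300 and TraesCS3D01G472000 carry a protein kinase domain (PF00069) beside the CAP domain in their descriptions, and are the only listed CAP-domain genes that do. TraesCS3A01G477300 (709123866 to 709129930, minus strand) measured 0.27, 0.16 and 0.45 CPM in WT, 1.28, 0.38 and 3.24 in C20, 3.41, 1.70 and 3.55 in C22, and 6.06, 7.92 and 9.25 in C40. C20 replicate 2 fell within the WT range and all other line libraries were above it. Its log2 fold change in the mean of the lines was 3.49 ± 0.64 (adjusted p = 0.00629). TraesCS3D01G472000 stayed lower, at 0.05 ± 0.01 CPM in WT and 1.95 ± 0.46 in C40, with a change of 3.78 ± 0.80 (adjusted p = 0.0111) whose call was lost without WT replicate 2 or 3. Both were called in C22 and C40 and not in C20, where TraesCS3A01G477300 had a change of 2.45 ± 0.68 (adjusted p = 0.0723).

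The members on groups 3, 5 and 7 and those on groups 4 and 6 showed 2 different courses across the line libraries, a division made after the values were seen. On groups 3, 5 and 7 there were 23 members, summing to 3.0, 2.10 and 12.8 CPM in WT, 77.0, 12.2 and 160 in C20, 160, 153 and 134 in C22, and 406, 477 and 544 in C40. C20 replicate 2 lay just below WT replicate 3, and the other 8 line libraries were above WT. Of their 17 tested members, all 17 had group means in the order C40, C22, C20, and C20 replicate 2 was the lowest line library in 16. All 13 calls for the mean of the lines were among them (background 11.3%). The only one of the 17 with 0 counts throughout C20 was TraesCS7B01G104900.

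The 13 members on groups 4 and 6 summed to 3.35, 5.24 and 5.42 CPM in WT, 22.9, 37.2 and 1.89 in C20, 14.5, 22.4 and 11.7 in C22, and 1.42, 21.3 and 18.9 in C40. C20 replicate 3 and C40 replicate 1 lay below every WT library, and the other 7 line libraries above them all. Of the 8 tested members there, C20 replicate 2 was the highest line library in 8, and C20 replicate 3 and C40 replicate 1 were the lowest 2 in 7. The core histone sums in the same libraries were 5018, 12601 and 1490 CPM in C20, 5977, 9217 and 6210 in C22, and 1157, 5318 and 8656 in C40, so the same C20 library was highest and the same pair lowest. The part of this difference in the group 4 and 6 result was not tested.

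**Figure D3:**
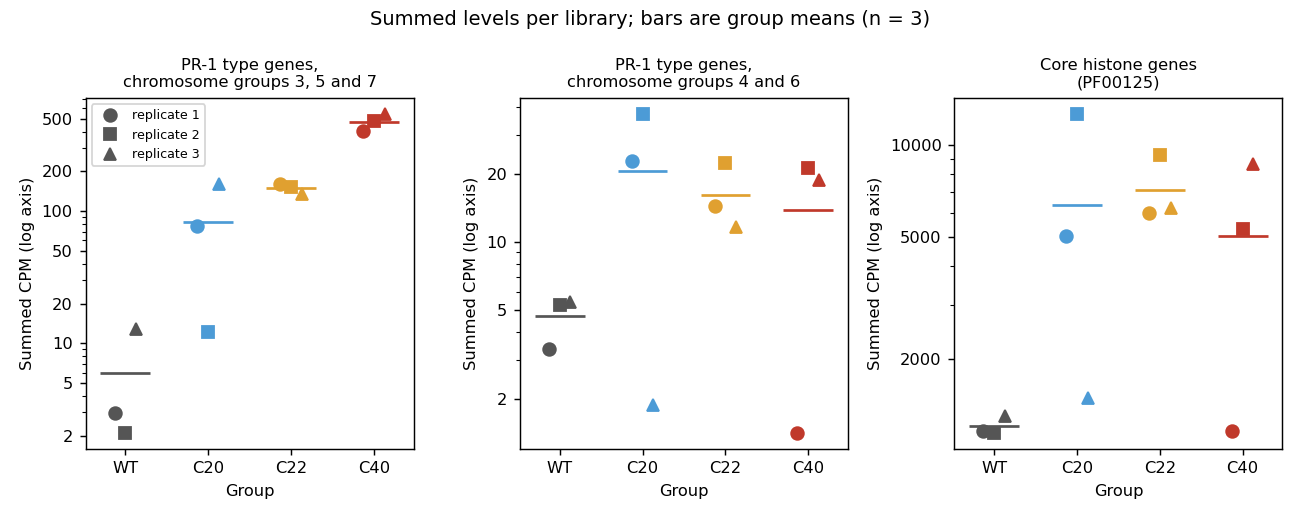
Summed CPM per library, on logarithmic axes, of the members on chromosome groups 3, 5 and 7, of those on groups 4 and 6, and of the core histone genes, with a symbol for each replicate and a bar at each group mean (n = 3). C20 replicate 3 and C40 replicate 1 sit low for groups 4 and 6 (1.89 and 1.42 CPM) and for histones (1490 and 1157 CPM), while for groups 3, 5 and 7 they sum to 160 and 406 CPM, the highest C20 value and the lowest C40 value.

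For the mean of the lines edgeR called 0 of the 8 tested members on groups 4 and 6 higher (background 11.3%). A count of 0 in 8 genes cannot be told from that background. There were 5 at an unadjusted p under 0.05, 6 called by DESeq2 and 0 by limma. TraesCS4B01G063600 (558 bp, minus strand, 55726555 to 55727112) measured 0.39, 1.54 and 0.58 CPM in WT, 4.64, 7.44 and 0.04 in C20, 3.12, 4.17 and 2.89 in C22, and 0.52, 5.40 and 5.25 in C40. The 2 libraries named above were inside or below the WT range, and the other 7 exceeded it. Its log2 fold change in the mean of the lines was 2.15 ± 1.01 (adjusted p = 0.139), beside 2.55 ± 1.02 for TraesCS4A01G251300 (0.0895) and 2.45 ± 1.08 for TraesCS4D01G062500 (0.119).

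On group 6, TraesCS6A01G345100 measured 0.22, 0.09 and 0.07 CPM in WT, 2.70, 3.04 and 0.09 in C20, 0.80, 1.61 and 1.32 in C22, and 0.03, 1.44 and 0.78 in C40 (log2 fold change 3.19 ± 1.11, adjusted p = 0.0585). C20 replicate 3 and C40 replicate 1 were within or below the WT range, and the other 7 line libraries were above it. TraesCS6B01G377800 averaged 0.08 ± 0.07 CPM in WT and 3.06 ± 3.0 in C20 (4.37 ± 1.51, adjusted p = 0.0571). TraesCS6A01G345200 had 0 counts in WT, in C20 replicate 3 and in C40 replicate 1, and reached 1.51 CPM in C20 replicate 2. TraesCS6D01G327600 had the highest WT level of the group 6 genes, 1.68, 1.38 and 3.26 CPM, and its line libraries ran from 0.09 to 6.97, on both sides of WT (0.17 ± 0.82, adjusted p = 0.892). With C20 replicate 3 and C40 replicate 1 left out, a fit chosen with earlier results in view, 19 of 27 tested members were called higher for the mean of the lines: the same 13 and TraesCS4A01G251300, TraesCS4B01G063600, TraesCS4D01G062500, TraesCS6A01G345100, TraesCS6A01G345200 and TraesCS6B01G377800. The 2 libraries left out were the lowest line libraries in 7 of the 8 tested members of groups 4 and 6. Leaving them out raises the line means of those 7 by construction, so the added calls are not evidence for these genes. The share of all tested genes called in that fit is not given here.

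The other 16 members were too low to test, with at most 127 counts over all libraries and at most 2.11 CPM in any one. Of these, 13 had a higher mean in the lines. They include 10 with 0 counts in WT, whose direction was fixed by the minimum count. TraesCS1A01G443800 had 5 counts in WT and 0 in the lines, where a count of 0 over 9 libraries does not show absence at this depth. Of the 5 listed genes on group 1, 4 had 0 counts in all 12 libraries, as did 11 of 13 on group 2, 9 of 24 on group 5 and 4 of 13 on group 7. On groups 3, 4 and 6 every listed gene had at least 5 counts.

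Beside the CAP-domain genes stand other PR families and defence regulators, listed by Pfam domain with earlier results of these data known. For the mean of the lines against WT, 11 of 45 tested chitinase genes of glycosyl hydrolase family 19 were called higher and 1 lower. Such enzymes cut fungal chitin. Genes of glycosyl hydrolase family 17 (beta-1,3-glucanases and their relatives) gave 34 higher and 11 lower of 133. Thaumatin genes (PR-5 type) gave 10 higher and 7 lower of 72, barwin genes (PR-4 type) 3 and 1 of 9, Bet v 1 genes (PR-10 type) 4 and 3 of 24, and glycosyl hydrolase family 18 genes 0 and 2 of 21 (edgeR), with 2 higher at an unadjusted p under 0.05 and 0 by DESeq2 or limma. The backgrounds are again 11.3% higher and 11.7% lower. The median log2 fold changes were 2.24 for barwin, 0.76 for thaumatin, 0.70 for family 19 chitinase and 0.68 for Bet v 1 genes. They were 0.54 for family 17 and 0.01 for family 18 genes, beside 4.37 for the tested CAP-domain genes. The same low-count filter applied to every list, and it admits a gene near 0 in WT only where the lines are higher.

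Regulators and hormone-pathway genes were called in both directions for the mean of the lines, beside backgrounds of 11.3% higher and 11.7% lower. WRKY transcription factors, many of which act in defence signalling, gave 64 higher and 14 lower of 199. Phenylalanine ammonia-lyase genes, at the entry of phenylpropanoid and one route to salicylic acid, gave 13 and 3 of 40. Of 12 tested genes with a chorismate-binding domain, found in isochorismate synthase and in anthranilate and other synthases, 0 were higher and 4 lower by edgeR, with 2 higher at an unadjusted p under 0.05, 1 by DESeq2 and 0 by limma. In C20, C22 and C40 singly, 0, 1 and 2 of them were higher (backgrounds 1.39%, 9.35% and 9.68%) and 0, 2 and 3 lower. Among 11 tested genes with the NPR1 C-terminal domain, 0 were higher and 2 lower by edgeR, with 1 higher at an unadjusted p under 0.05, 1 by DESeq2 and 0 by limma. In the same 3 lines singly, 0, 0 and 1 of these were higher, beside the same backgrounds, and 0, 2 and 1 lower. TraesCS4D01G017500 fell from 64.5 ± 7.05 CPM in WT to 33.6 ± 17.2 in the lines (log2 fold change -1.02 ± 0.25, adjusted p = 0.019), and TraesCS3A01G298800 from 72.7 ± 4.52 to 35.8 ± 11.1 (-1.03 ± 0.27, adjusted p = 0.0248). By edgeR TraesCS4D01G017500 was called lower in C22 and C40 (adjusted p = 0.0212 and 0.0209) and not in C20 (0.507). TraesCS3A01G298800 was called lower in C22 (0.0404) and not in C20 (0.14) or C40 (0.0808). On the jasmonate side, lipoxygenases, whose plastid forms start jasmonate synthesis, gave 1 higher and 9 lower of 41, and TIFY genes, which include the JAZ repressors, gave 0 and 14 of 53 (edgeR). For TIFY genes 0 were higher at an unadjusted p under 0.05, by DESeq2 or by limma. Line by line, 1 TIFY gene was called lower in C20, 22 in C22 and 10 in C40. Among all 75788 tested genes 750, 6427 and 6608 were. Median log2 fold changes of the TIFY genes were -0.24, -1.54 and 0.17. Lipoxygenases gave 1, 10 and 12 lower, and 0, 0 and 5 higher (backgrounds of higher calls 1.39%, 9.35% and 9.68%). Over the 12 lists, 140 of 660 tested genes were called higher and 71 lower for the mean of the lines. The lower share was near its background. Without WT replicate 1, 2 or 3 the counts were 68, 52 and 77 higher and 30, 19 and 24 lower. The shares of all tested genes called in those fits are not given here, so a loss particular to these lists is not shown.

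**Figure D4:**
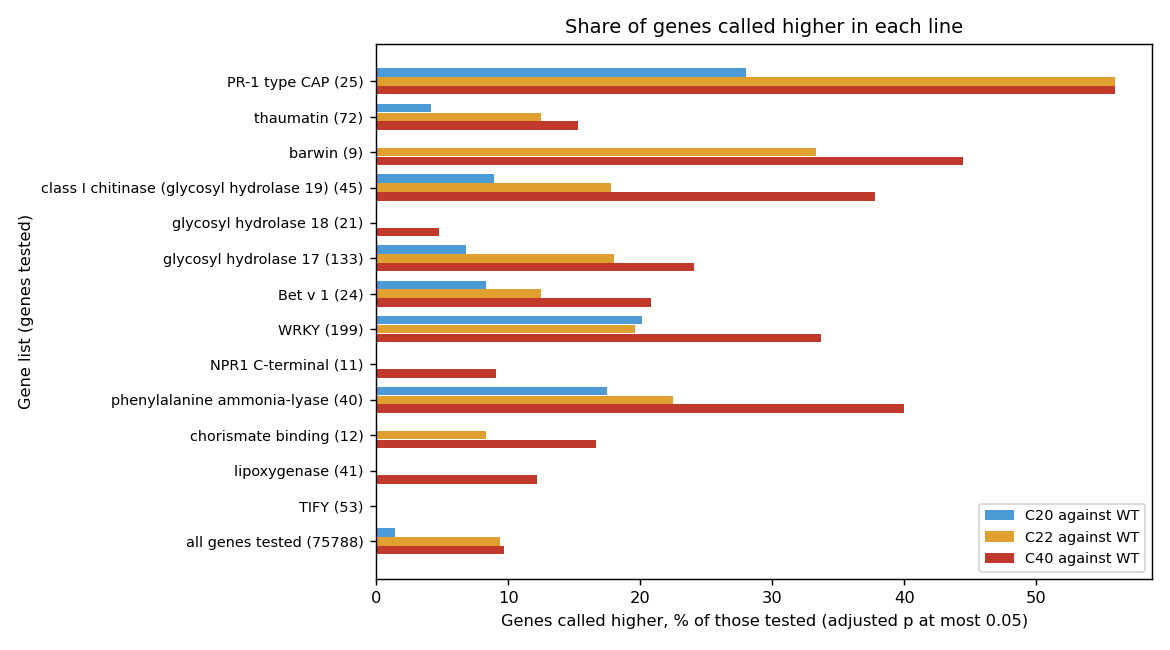
Percent of tested genes called higher against WT in C20, C22 and C40 for the CAP-domain genes, 12 lists of other PR families and regulators, and all genes tested, with the number tested in brackets. The CAP-domain bars reach 28.0%, 56.0% and 56.0%, against 1.39%, 9.35% and 9.68% over all genes, and TIFY has no gene called higher in any line.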

How the data were processed

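Libraries were made with the NEBNext Ultra kit from 1 µg of Trizol-extracted RNA each, per the labels. The authors deposited a table of raw counts and a table of FPKM values. Counting used featureCounts 1.5.0-p3, per the submitters' processing notes. The aligner, annotation, genome build and strand setting were not stated in the sources used here. In each library the deposited FPKM equalled count over gene length up to a constant, and relative to the library total this constant ran from 0.797 to 1.35. No reference sequence was used, so no sequences are printed.

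Counts went into edgeR 4.0.16 under R 4.3.3. There filterByExpr left 75788 genes, libraries were scaled by TMM, and the 12 libraries were fitted together by the robust quasi-likelihood method with a mean for each of the 4 groups. P-values were adjusted by Benjamini-Hochberg over all tested genes, and genes were called at 0.05. CPM was computed on TMM-scaled totals. Each standard error was derived from the log2 fold change and its F statistic. Folds against a group at 0 are lower bounds against 3 counts over the group, which covers counting error only. The median biological coefficient of variation was 0.321. The model was tested on simulated counts.

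The members and the lists were chosen with earlier results of these data known. Named genes were up to 12 called members per direction by adjusted p in the mean of the lines, 4 per line and 4 from the F test, the 6 highest per kilobase in WT and in the lines, the highest of each cluster of 3 or more, and members called in all 3 lines. Genes outside this rule, such as TraesCS4A01G251300, TraesCS6A01G345200, TraesCS7B01G105100 and those left out or gained in single fits, were named after their values were seen. So was the division by chromosome group. Replicate pairs had a chi-square per gene of 7.19 to 182, so none agreed within sampling noise.

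The alternatives were RLE size factors, DESeq2 1.42.0, a replicate block, no low-count filter, a minimum of 1 CPM in 3 libraries, limma 3.58.1 on log2(FPKM + 0.1) and on log2(FPKM + 1), leaving out each library, leaving out C20 replicate 3 and C40 replicate 1, and each line fitted with WT alone. Added after seeing the data were the pairwise contrasts between lines and a fit without robust moderation.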

Additional observations from a re-analysis of the deposited data

Results flagged for a closer look

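TraesCS7B01G104900 and TraesCS7D01G201400 differed between the lines in a test of that difference itself, the F test over C20, C22 and C40 (edgeR). For TraesCS7B01G104900 the adjusted p was 0.0157, with 0 counts in every C20 library, 0.90, 2.40 and 1.66 CPM in C22 and 11, 3.63 and 6.99 CPM in C40. For TraesCS7D01G201400 it was 0.0307, with group means of 2.58 ± 1.73 CPM in C20, 10.2 ± 6.24 in C22 and 33.2 ± 10.3 in C40 (SD, n = 3), each group's libraries apart from the others'. Leaving out single libraries gave 1 to 9 members called by the F test. TraesCS7B01G104900 was called each time, and TraesCS7D01G201400 only when C20 replicate 2, C20 replicate 3 or C22 replicate 2 was left out.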

How the results depend on the processing

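The 13 members called higher for the mean of the lines were called again with RLE, DESeq2 (20 calls), no filter, the 1 CPM filter, both limma fits, the replicate block and no robust moderation. Leaving out single libraries gave 10 to 19, and the calls of TraesCS3D01G472000 and TraesCS7A01G198800 were lost without WT replicate 2 or 3, with TraesCS7B01G105300 also lost without replicate 2. Calls in C20 were 7, and 15 by DESeq2, 4 by limma with a pseudocount of 1, 13 without C20 replicate 3 and C40 replicate 1, 0 with WT alone, and 0 to 11 without single libraries. That range was 7 to 18 in C22 and 14 to 18 in C40. The F test called 2, and 7 by DESeq2, 8 by limma with a pseudocount of 1, 8 without both libraries, and 1 to 9 without single ones. For C22 above C20 the count was 1, and 3 by DESeq2, 3 without both libraries and 0 to 1 without single ones. For C40 above C20 it was 3, and 9 by DESeq2, 7 and 12 by limma with pseudocounts of 0.1 and 1, 8 without both libraries and 1 to 9 without single ones. For C40 above C22 it was 0, and 1 by DESeq2, 1 and 2 by limma, and 0 to 3. The other defence lists had 140 higher and 71 lower in all, 110 lower without both libraries, and 52 to 192 and 19 to 99 without single ones. The log2 ratio of summed CPM was 4.56, 2.12 as a mean of log2(CPM + 0.1), and 4.30 to 5.18 without single libraries. Library totals in place of TMM would raise the lines against WT by 0.42 on the log2 scale on average, and C20, C22 and C40 by 0.27, 0.50 and 0.50. For the alternative fits the share of all tested genes called is not given, so their counts of calls stand without a background.

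Replicate numbers were not taken as pairs: of 18 pairs with the same number 8 correlated above 0.1, from -0.51 to 0.44. With a replicate block, 14 members were called in the mean of the lines, 4 in C20, 0 in the F test and 0 for C22 above C20.

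Of the named genes, 4 that were not called changed sign in some fits. TraesCS5A01G439700 had a mean change of 0.35, -0.31 without C20 replicate 3 and C40 replicate 1, and -0.37 to 7.91 without single libraries. In C20 it was 0.37 by limma with 0.1 and -3.06 to 6.64 without single libraries, and in C22 -1.39 to 7.80, each high end being without WT replicate 3, where the remaining WT libraries are at 0 and the fitted value is no bound. In C20, TraesCS5B01G442600 ran from -0.87 to 2.36 and TraesCS5D01G446800 from -0.54 to 4.78 without single libraries, and they were -0.87 and -0.53 without both. TraesCS6D01G327600 had a mean change of -0.21 with the replicate block, -0.26 and -0.00717 by limma, and -0.22 to 0.61 without single libraries, with -1.22 to 0.26 in C22 and -1.65 to 0.0775 in C40 (0.0726 without both). The cause of these changes was not tested.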

Other observations

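Most CAP-domain genes on the group 2 chromosomes lie near alternative oxidase genes, which encode the mitochondrial oxidase that bypasses the cytochrome pathway. Listed CAP genes of group 2 were nearly silent, whether near these or far from them. Of the 13 listed on group 2, 10 lay 9.35 to 309 kb from the nearest alternative oxidase gene (start to start), and 8 of these had 0 counts in all 12 libraries. TraesCS2D01G382900, TraesCS2B01G403600 and TraesCS2B01G403700, 59616 to 81532 kb away, had 0 counts too. The highest of the 10, TraesCS2B01G459700, had 25 counts in all, 62.4 kb from TraesCS2B01G459300. That oxidase gene was called higher in the mean of the lines (log2 fold change 1.19, adjusted p = 0.0331, edgeR), as was TraesCS2D01G436700 (1.07, adjusted p = 0.0476), which has CAP genes with 0 to 2 counts on one side. TraesCS2A01G439400, with TraesCS2A01G439600 at 0 counts 9.35 kb away, had a change of 0.23 (adjusted p = 0.669).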
